A study of Mus musculus with 19 samples.

Results

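Histone genes were followed across mouse thymocytes with and without Rptor, the gene of Raptor, the subunit that defines the kinase complex mTORC1. A gene counted as a histone gene where its current symbol or an older RefSeq name starts with Hist and a cluster number, with H1 to H4 and a cluster letter c, or with H1f, H2af, H3f or H2bf, and where a probe set carries that gene's symbol alone. This gave 44 of the 22180 genes measured: 25 replication-dependent histone genes (4 of H1, 6 of H2A, 7 of H2B and 8 of H4), 7 variant histone genes, 9 germline histone genes and 3 pseudogenes. RefSeq holds 94 genes that match these names. Another 47 probe sets carry several symbols with a histone gene among them and were not used. No H3 gene is a member: 12 of these probe sets hold a replication-dependent H3 gene and 7 hold H3f3a or H3f3b. Members are often near-identical in coding sequence, so the signals of neighbouring H2A, H2B or H4 genes cannot be assumed to be separate.

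Expression was measured on 19 microarrays of thymocytes sorted from C57BL/6 mice. DN3a cells (a double-negative stage before the αβ and γδ lineages part), immature single-positive (ISP) cells of the αβ branch, and γδ T cells were each taken from wild-type (WT) mice and from mice in which a CD2-cre transgene meets a floxed Raptor allele, which the labels call Rptor-/-. ISP cells had 4 WT and 3 Rptor-/- arrays, whereas DN3a and γδ T cells had 3 per genotype. The labels give no ages, do not say whether WT mice carried CD2-cre, and name no antibody to the γδ receptor in the γδ gate. Nothing in them says that replicates were separate mice, so the spread behind each p-value is that among these arrays and may be technical. All values are log2 signals. Medians of the 7 ISP arrays were 3.80 to 3.88 against 6.03 to 6.13 on the other 12, so ISP levels were read only against ISP levels. Rptor itself was lower in Rptor-/- cells by 0.58 in DN3a, 0.24 in ISP and 0.30 in γδ T cells (limma adjusted p = 6.0e-04, 0.038 and 0.049). The exact two-sided permutation p was 0.1 in DN3a and γδ T cells, the smallest 3 against 3 arrays allow, and 0.114 in ISP cells. Of the defining markers that could be read, the 6 of ISP cells lay at or above the 95.2 percentile of genes on WT ISP arrays, the 4 of γδ T cells at or above the 92.3 percentile on WT γδ arrays, and the 7 of DN3a cells at or above the 72.2 percentile (median 97.7) on WT DN3a arrays. The DN3a genes also had a median percentile of 94.9 on WT ISP arrays, and the ISP genes one of 97.8 on WT DN3a arrays. The γδ genes had medians of 66.4 on WT DN3a and 80.3 on WT ISP arrays. Cd3e is in each of these lists, and Ptcra is in those of DN3a and ISP cells. No γδ receptor gene was among those read, so these percentiles separate the populations only in part.

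Histones package DNA into nucleosomes. Replication-dependent genes sit in clusters, are transcribed in S phase to supply histones for newly made DNA, and give messages that end in a stem-loop bound by SLBP in place of a poly(A) tail. Variant genes mostly lie apart, are mostly transcribed through the cycle and give mostly polyadenylated messages. Of the variants here, H2aj lies close to the replication-dependent gene H4f16. Among their proteins, H2A.Z is placed at promoters by its own exchange complexes, H2A.X lies throughout chromatin and is phosphorylated beside DNA breaks, and macroH2A is found in repressed chromatin. Developing thymocytes divide rapidly after pre-TCR signalling, which is when demand for new histones is high.

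Replication-dependent promoters are known for a few short motifs, and 9 promoters of members whose signals differed between genotypes are shown to let these be seen. The sequences are RefSeq's for GRCm38.p6, each the 150 bases before the annotated start, with matches to the core promoter box TATAAA, the pentamer CCAAT, the octamer ATTTGCAT of H2B promoters or the H1 box AAACACA, on either strand, in capitals. The first 6 belong to the genes lower in Rptor-/- γδ T cells.
H1f1, chr13:23763518-23763667, plus strand: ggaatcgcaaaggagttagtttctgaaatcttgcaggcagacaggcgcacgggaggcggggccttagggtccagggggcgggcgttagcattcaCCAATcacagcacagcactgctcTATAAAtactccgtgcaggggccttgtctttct
H1f5, chr13:21780626-21780775, minus strand: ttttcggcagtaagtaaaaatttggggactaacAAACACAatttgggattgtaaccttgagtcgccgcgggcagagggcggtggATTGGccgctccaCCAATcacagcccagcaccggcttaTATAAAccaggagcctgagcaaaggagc
H2ac10, chr13:23533725-23533874, plus strand: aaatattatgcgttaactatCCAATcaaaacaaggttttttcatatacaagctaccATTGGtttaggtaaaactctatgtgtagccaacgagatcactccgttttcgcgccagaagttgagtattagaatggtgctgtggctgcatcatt
H2ac20, chr3:96220881-96221030, minus strand: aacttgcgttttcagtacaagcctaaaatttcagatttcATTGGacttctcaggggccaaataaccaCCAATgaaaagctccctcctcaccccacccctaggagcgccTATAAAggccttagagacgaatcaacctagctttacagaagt
H2bc12, chr13:22035671-22035820, plus strand: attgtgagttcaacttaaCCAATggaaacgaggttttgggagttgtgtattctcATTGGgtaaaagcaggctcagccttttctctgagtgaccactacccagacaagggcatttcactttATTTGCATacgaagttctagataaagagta
H2bc18, chr3:96269550-96269699, plus strand: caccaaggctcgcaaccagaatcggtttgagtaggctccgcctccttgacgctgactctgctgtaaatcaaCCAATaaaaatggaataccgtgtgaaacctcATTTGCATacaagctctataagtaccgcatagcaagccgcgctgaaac
The next 3 belong to 3 of the 10 genes that differed in Rptor-/- ISP cells: the replication-dependent H2A gene H2aw and the variants H1f10 and H2aj.
H2aw, chr11:58954535-58954684, plus strand: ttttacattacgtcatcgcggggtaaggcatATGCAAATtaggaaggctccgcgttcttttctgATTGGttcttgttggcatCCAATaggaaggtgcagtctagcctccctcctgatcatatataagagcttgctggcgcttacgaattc
H1f10, chr6:87981483-87981632, minus strand: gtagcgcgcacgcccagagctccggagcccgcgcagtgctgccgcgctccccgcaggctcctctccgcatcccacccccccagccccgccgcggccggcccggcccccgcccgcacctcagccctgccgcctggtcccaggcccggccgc
H2aj, chr6:136808098-136808247, plus strand: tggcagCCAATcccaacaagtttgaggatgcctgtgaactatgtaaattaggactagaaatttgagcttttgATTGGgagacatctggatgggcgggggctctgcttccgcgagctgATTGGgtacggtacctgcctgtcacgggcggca
H1f5 has 1 AAACACA, 2 matches to CCAAT and 1 TATAAA in this stretch. H2bc12 and H2bc18 have the octamer 30 and 48 bases before the start, and H2aw has it on the opposite strand. H1f10 has none of the 4 motifs and H2aj has CCAAT alone. Over 250 bases before the start, 38 of the 44 members had a promoter in the table. CCAAT was in 17 of the 23 replication-dependent promoters, 3 of the 6 variant promoters and 33.9% of all 32851 promoters. TATAAA was in 11, 0 and 12.4% in the same order, ATTTGCAT in 7, 0 and 1.60%, and AAACACA in 4, 0 and 6.25%. The 9 promoters of germline members held them too: CCAAT in 7, TATAAA in 2, ATTTGCAT in 2 and AAACACA in 3. By family, CCAAT was in all 4 H1, all 6 H2A and all 6 H2B promoters but in 1 of 7 H4 promoters, ATTTGCAT in 4 of 6 H2B and 3 of 6 H2A promoters, and AAACACA in 3 of 4 H1 promoters. A match describes these letters only and marks no bound site.

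In γδ T cells the replication-dependent genes called lower in Rptor-/- came from the linker histone H1 and the H2A and H2B families, and no member was called higher. By limma, 6 of the 44 members were lower and 0 higher, where 1.28% of all genes were lower, 1.77% higher and 3.05% changed in either direction. All 6 were replication-dependent: H1f1, H1f5, H2ac10, H2ac20, H2bc12 and H2bc18. They were also all among the 16 replication-dependent genes brighter than the median gene of the γδ arrays. Of these 16 brighter genes 14 were lower in value, with a median of −0.40, whereas the median of all genes above that level was 0.033 and 2.12% of them were called lower. The 9 dimmer ones had a median of −0.019 and no call. Over all 25 the median was −0.11. Among variants, the 5 brighter genes had 4 below 0, a median of −0.18 and no call.

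The linker histones H1, which bind DNA between nucleosomes, held the largest difference. H1f1 (older name Hist1h1a) read 6.27, 6.72 and 7.38 on the Rptor-/- arrays and 8.08, 8.21 and 7.21 on the WT arrays. One Rptor-/- array lay above the lowest WT array, so the groups overlapped. The difference was −1.04 (SE 0.27; limma adjusted p = 0.043). H1f5 (Hist1h1b) read 6.85, 7.34 and 7.80 in Rptor-/- and 8.16, 8.02 and 8.14 in WT. All its Rptor-/- arrays lay below all WT arrays, and they spread over more than the WT arrays did, with 7.33 ± 0.48 against 8.11 ± 0.08 (SD, n = 3 each). The difference of −0.78 (SE 0.18; limma adjusted p = 0.022) left 58.3% of the WT signal. H1f2 and H1f3, also somatic linker genes, were at −0.08 (SE 0.10) and 0.14 (SE 0.11) and did not pass.

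Among H2A genes H2ac10 (Hist1h2af) read 11.25, 11.17 and 11.18 in Rptor-/- and 11.67, 11.74 and 11.55 in WT. The groups were clearly apart, and the spread within each was small: 11.20 ± 0.04 against 11.65 ± 0.10 (SD, n = 3 each). Its difference was −0.45 (SE 0.09; limma adjusted p = 0.0071), 73.1% of the WT signal. H2ac20 (Hist2h2ac), of another cluster, read 8.67, 8.98 and 8.84 against 9.18, 9.20 and 9.40, without overlap, a difference of −0.43 (SE 0.11; limma adjusted p = 0.037). H2ac15 (Hist1h2ak) had a larger difference, −0.69 (SE 0.22), with groups apart, but did not pass (limma adjusted p = 0.10). H2aw, the H2A gene of the third cluster, was at 0.27 (SE 0.14; limma adjusted p = 0.37).

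In the H2B family all 7 genes were below 0, with 2 calls, but the median was only −0.07 and the value nearest 0 was −0.0022. H2bc12 (Hist1h2bk) read 7.34, 8.20 and 7.82 in Rptor-/- and 8.67, 8.89 and 8.46 in WT. Every Rptor-/- array lay below every WT array, and the difference of −0.88 (SE 0.19; limma adjusted p = 0.014) left 54.2% of the WT signal. H2bc18 (Hist2h2bb) read 9.40, 9.42 and 9.44 against 9.80, 10.09 and 9.85, groups that lay apart, with a difference of −0.49 (SE 0.12; limma adjusted p = 0.023). H2bc3 (Hist1h2bb), among the brightest members, was at −0.37 (SE 0.12; limma adjusted p = 0.12), its 3 Rptor-/- arrays just below the 3 WT arrays.

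The 8 H4 genes had no call in γδ T cells and no common direction, with 4 below and 4 above 0. At an unadjusted p under 0.05, 2 were lower and 1 higher. Of those above 0, H4c1, H4c2 and H4c8 were dimmer than the median gene, as was H4c17 below 0. Among the brighter ones H4c9, H4c12 and H4f16 were below 0 and H4c14 above. H4c9 (Hist1h4i) read 6.88, 7.29 and 7.85 in Rptor-/- and 8.55, 8.51 and 7.54 in WT, so the third arrays overlapped. Its difference of −0.86 (SE 0.31; limma adjusted p = 0.16) did not pass. H4c12 (Hist1h4k), the brightest H4 gene, was at −0.20 (SE 0.08; limma adjusted p = 0.23). H4f16 (Hist4h4) read 9.51, 9.70 and 9.96 in Rptor-/- and 9.83, 10.20 and 9.93 in WT, with overlap. H4c14 (Hist2h4) was at 0.48 (SE 0.16; limma adjusted p = 0.12).

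**Figure D1:**
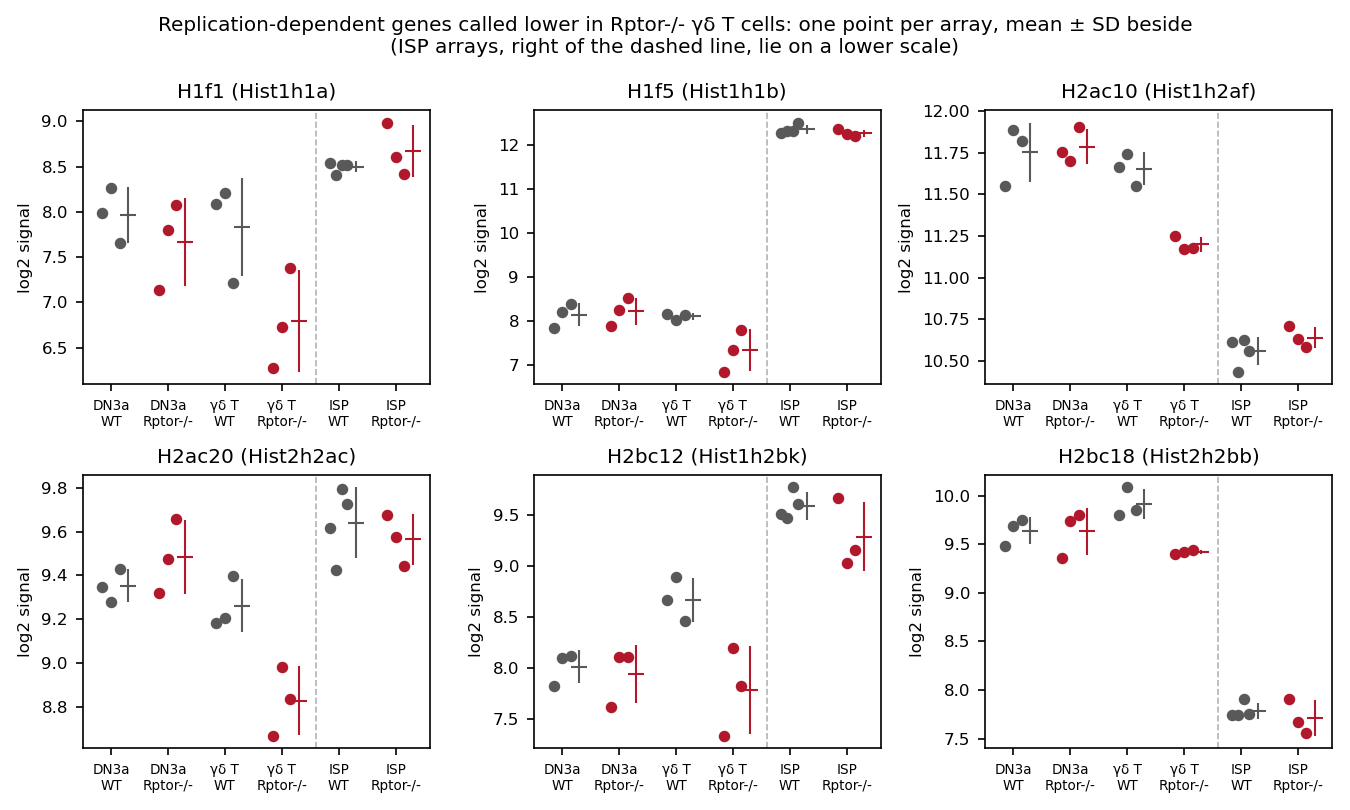
The 6 histone genes called lower in Rptor-/- γδ T cells, 1 point per array with the group mean ± SD beside it (log2 signal; grey WT, red Rptor-/-); ISP arrays, right of the dashed line, lie on a lower scale. In γδ T cells the Rptor-/- points lie below the WT points except for 1 array of H1f1, whereas in DN3a cells the genotypes overlap in every panel.

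Variant histones in γδ T cells had a median of −0.18 over 7 genes, with 5 below 0 and 0 called (2 lower at an unadjusted p under 0.05). H2ax came nearest: it read 11.54, 11.64 and 11.87 in Rptor-/- and 11.99, 12.29 and 12.09 in WT. The groups did not overlap, and the difference was −0.44 (SE 0.12; limma adjusted p = 0.053). It passed when dim genes were left out, with an intensity trend in the prior, and without Rptor-/- array 3. H2az1 and H2az2, the pair of H2A.Z genes, were at −0.24 (SE 0.08; limma adjusted p = 0.14) and −0.18 (SE 0.10; limma adjusted p = 0.40). Macroh2a1 was at −0.14, Macroh2a2 at 0.03, H2aj at 0.09 and the linker variant H1f10 at −0.22, none of them called. The germline genes had no call either. H2ab1, an H2A gene of the testis, came nearest at −0.43 (SE 0.12; limma adjusted p = 0.060), and it passed when dim genes were left out (limma adjusted p = 0.033) and with quantile normalization (0.047).

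Genes of the surrounding pathways fell beside the histones in Rptor-/- γδ T cells. Of 14 measured chaperones that deliver new histones at replication forks, 6 fell, 1 rose and 7 did not pass (median −0.29). Asf1b, a chaperone of H3 and H4, fell by 0.73, Nasp, a chaperone that guards the soluble pool, by 0.46, Chaf1b, a subunit of chromatin assembly factor 1, by 0.46 and the helicase subunit Mcm2 by 0.45 (limma adjusted p = 7.8e-04, 0.022, 0.0055 and 0.012). None of 15 genes of histone message processing passed by limma (median −0.026), and Slbp was at −0.21 (SE 0.10; limma adjusted p = 0.33). Of 19 genes listed with the chaperones and exchange factors of variant histones 3 fell, 0 rose and 16 did not pass: Dek by 0.45, Nap1l1 by 0.37 and Cenpa by 0.50 (limma adjusted p = 0.034 for Cenpa). Cenpa is itself the gene of a centromeric H3 variant, which the name rule for members leaves out. Of 27 S phase genes 20 fell and 0 rose (median −0.61), Lig1, the replicative ligase, by 0.82 and Tyms, thymidylate synthase, by 0.71. In mitosis 11 of 19 fell and 0 rose (median −0.70), Birc5, survivin, by 0.96 and Mki67, the gene of the Ki-67 antigen, by 0.74. Relative to the WT mean, the 16 brighter replication-dependent genes averaged −0.55, −0.33 and −0.22 on the 3 Rptor-/- arrays and 0.06, 0.04 and −0.10 on the WT arrays. The S phase list averaged −0.68, −0.57 and −0.42 on the same Rptor-/- arrays, in the same order. What part the S phase and mitosis genes' shift had in the histone result was not tested, and fewer dividing cells and less histone RNA per cell cannot be told apart in bulk samples.

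Of the 6 γδ calls, that of H2ac10 held under all 13 alternatives (limma adjusted p 0.0012 to 0.0499), whereas the highest adjusted p was 0.20 for H1f1, 0.15 for H2ac20, 0.13 for H2bc18, 0.10 for H1f5 and 0.082 for H2bc12. The number of members called was 1 without Rptor-/- array 1 or without WT array 2, 3 without Rptor-/- array 2 or without WT array 1, 3 with arrays centred on their medians and 2 when only γδ arrays were fitted; the median of the 25 replication-dependent genes went from −0.11 to −0.24 without WT array 3.

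**Figure D2:**
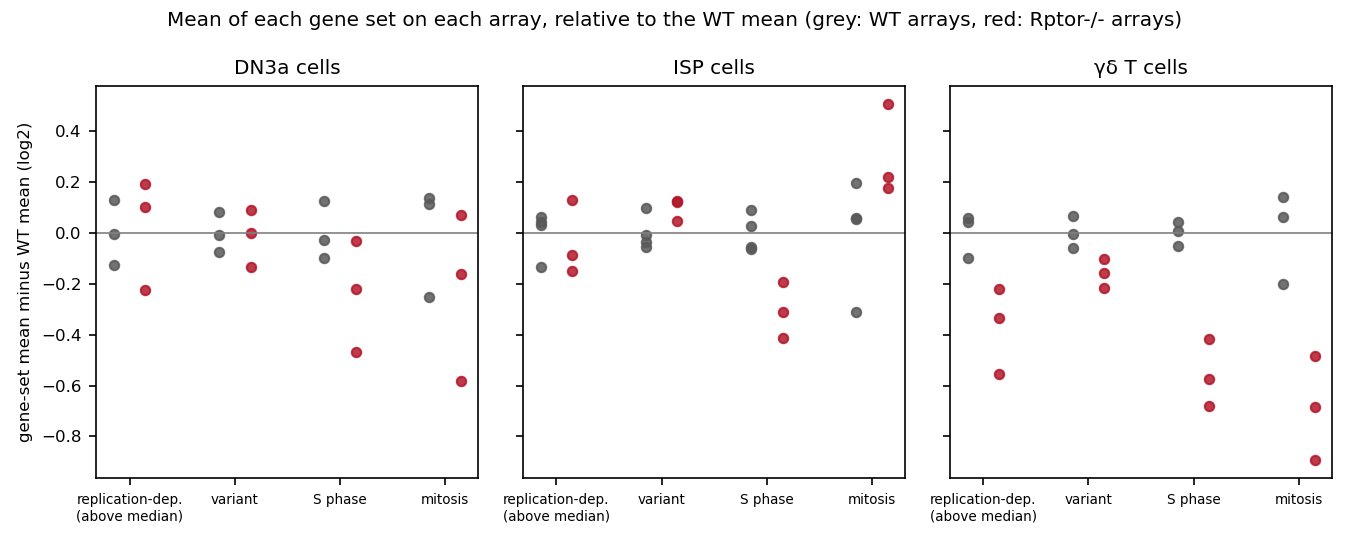
Mean of each gene set on each array minus the WT mean of that population (log2), for replication-dependent histones above the median gene, variant histones, and lists of S phase and mitosis genes; each point is 1 array. In γδ T cells the 3 Rptor-/- arrays lie below the WT arrays in every set; in ISP cells S phase means are lower and histone means overlap.

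In ISP cells single histone genes changed in both directions, and 3 of the 10 calls were variants. By limma, 10 of the 44 members passed, 3 higher and 7 lower, where 12.4% of all genes passed (5.87% higher and 6.57% lower). Brighter genes passed more often. Of the 30 members above the median gene of the ISP arrays, 3 were higher and 5 lower. Of all 11090 genes above that level, 1231 were higher and 1401 lower, so the members passed at about the rate of all genes that bright. The higher genes were the linker variant H1f10, the H2A gene H2aw and the linker gene H1f2. The lower ones were the variants H2aj and H2az1, the replication-dependent genes H2bc14, H4c1, H4c2 and H4c8, and the germline gene H2ab1. The 25 replication-dependent genes had 2 higher, 4 lower and 19 not passing, with a median of −0.08. The 7 variants had 1 higher, 2 lower and 4 not passing, with a median of 0.13. The median of all genes was −0.0039.

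H1f10 (H1fx), a replication-independent linker histone, had the largest difference of any member. It read 7.20, 6.76 and 6.96 on the Rptor-/- arrays and 6.08, 5.23, 6.07 and 6.04 on the WT arrays. WT array 2 lay apart below the other 3, and the groups did not overlap. The difference was 1.12 (SE 0.15; limma adjusted p = 4.8e-05), 6.97 ± 0.22 (SD, n = 3) against 5.85 ± 0.42 (SD, n = 4), and was 0.91 without WT array 2 (limma adjusted p = 9.19e-06). H2aj (H2afj), an H2A variant gene, moved the other way. It read 5.76, 5.96 and 6.15 against 6.71, 6.70, 6.80 and 6.46, with no overlap, and its difference of −0.71 (SE 0.11; limma adjusted p = 1.9e-04) left 61.0% of the WT signal.

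H2az1, an H2A.Z gene, read 5.28, 5.31 and 5.29 in Rptor-/- and 5.47, 5.62, 5.57 and 5.59 in WT. These groups were narrow and apart, and the difference was −0.27 (SE 0.08; limma adjusted p = 0.027). Its paralog H2az2, brighter on these arrays, was at 0.19 (SE 0.10; limma adjusted p = 0.26). H2ax was at 0.13 (SE 0.11; limma adjusted p = 0.60) and Macroh2a1 at −0.01 (SE 0.09; limma adjusted p = 0.98). Macroh2a2, dim on these arrays, was at 0.23 (SE 0.15; limma adjusted p = 0.46).

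Among replication-dependent genes H2aw (Hist3h2a) read 7.14, 6.68 and 6.90 in Rptor-/- ISP cells and 6.07, 6.02, 5.91 and 5.90 in WT. All Rptor-/- arrays lay above all WT arrays, 6.91 ± 0.23 (SD, n = 3) against 5.98 ± 0.08 (SD, n = 4). The difference of 0.93 (SE 0.14; limma adjusted p = 7.5e-05) was 191% of the WT signal. H2bu1-ps (Hist3h2bb), the H2B pseudogene of the same cluster, did not pass and was at −0.43 (SE 0.17; limma adjusted p = 0.12). H1f2 (Hist1h1c), a somatic linker histone gene, read 10.74, 10.65 and 10.65 against 10.36, 10.09, 10.21 and 10.41. The groups were apart, and the difference was 0.41 (SE 0.09; limma adjusted p = 0.0037). H1f3 was at 0.26 (SE 0.10; limma adjusted p = 0.10), H1f5, the brightest member on WT ISP arrays, at −0.08 (SE 0.17) and H1f1 at 0.17 (SE 0.26).

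All 8 H4 genes were below 0 in ISP cells, with a median of −0.31 and 3 calls, 2 of which were at genes dimmer than the median gene. H4c8 (Hist1h4h) read 2.36, 3.16 and 3.34 in Rptor-/- and 3.17, 3.56, 4.59 and 4.13 in WT. The groups overlapped and both varied widely around the difference of −0.91 (SE 0.25; limma adjusted p = 0.019). H4c1 (Hist1h4a) was at −0.51 (SE 0.15; limma adjusted p = 0.024) and H4c2 (Hist1h4b) at −0.31 (SE 0.10; limma adjusted p = 0.040), both with groups apart. The brighter H4c9 read 7.96, 7.33 and 7.55 against 8.33, 7.98, 8.24 and 8.28, apart but not called at −0.59 (SE 0.29; limma adjusted p = 0.25). H4c12, the brightest H4 gene, was at −0.04 (SE 0.08).

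The 7 H2B genes had 1 call in ISP cells. H2bc14 (Hist1h2bm) was at −0.29 (SE 0.09; limma adjusted p = 0.044), with overlapping groups. H2bc9 (Hist1h2bh) had the larger difference of −0.69 (SE 0.26; limma adjusted p = 0.10) and did not pass. Its Rptor-/- array 3, at 4.61, lay below the other 2, at 6.05 and 5.73. H2bc12, which fell in γδ T cells, was at −0.30 (SE 0.18; limma adjusted p = 0.38). The germline gene H2ab1 read 4.26, 3.85 and 4.08 against 4.36, 4.36, 4.63 and 4.52, a difference of −0.40 (SE 0.11; limma adjusted p = 0.023).

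**Figure D3:**
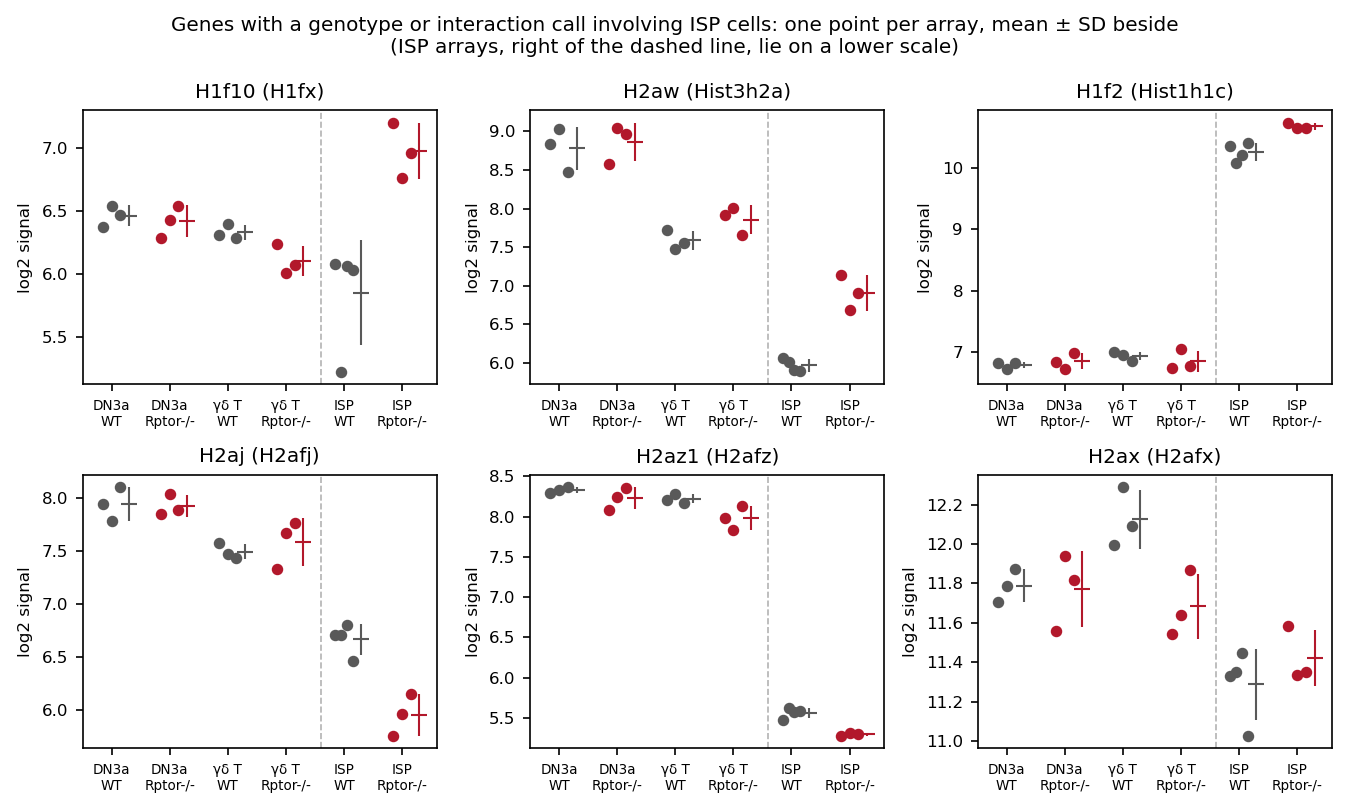
H1f10, H2aw, H1f2, H2aj, H2az1 and H2ax on every array, 1 point per array with the group mean ± SD beside it (log2 signal; grey WT, red Rptor-/-); ISP arrays, right of the dashed line, lie on a lower scale. In ISP cells H1f10, H2aw and H1f2 lie higher and H2aj and H2az1 lower in Rptor-/- with no overlap, while the H2ax groups are apart in γδ T cells without passing the test.

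Pathway lists around the histones in ISP cells fell in part. Of 15 genes of histone message processing 3 fell, 0 rose and 12 did not pass (median −0.20): Cpsf2, which belongs to the cleavage complex, by 0.44, the decay factor Lsm1 by 0.35 and the scaffold Sympk by 0.20 (limma adjusted p = 0.0037, 0.0045 and 0.044). Slbp was at −0.22 (SE 0.10; limma adjusted p = 0.17). Of 14 replication-coupled chaperones 5 fell and 0 rose (median −0.27), among them Chaf1b by 0.63, the H3 and H4 importer Ipo4 by 0.62, Nasp by 0.49 and the H4 acetyltransferase Hat1 by 0.36. Of the 19 genes listed with the variant chaperones and exchange factors 2 rose, 3 fell and 14 did not pass. Srcap, the motor of a complex that installs H2A.Z, rose by 0.34 and Atrx, a partner of H3.3 deposition, by 0.27, whereas Znhit1 and Ruvbl2, subunits of the same H2A.Z machinery, fell by 0.34 and 0.28. In S phase 12 of 27 fell and 0 rose (median −0.31), such as Rfc3 and Mcm5 by 0.67 and 0.54. In mitosis 4 of 19 rose and 0 fell (median 0.26), such as Cenpf and Cenpe by 0.99 and 0.75. The part of these shifts in the histone calls was not tested.

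The calls of H1f10, H2aw, H2aj and H1f2 in ISP cells held under all 14 alternatives (limma adjusted p at most 0.037, 0.0072, 0.016 and 0.038), whereas those of H2az1, H2bc14, H4c1, H4c2, H4c8 and H2ab1 were each lost under some, with highest adjusted p of 0.086, 0.18, 0.13, 0.15, 0.25 and 0.17. The count of members called was 5 without Rptor-/- array 3 or without WT array 3, 6 without Rptor-/- array 2 or without WT array 4, and 5 in a fit of the 7 ISP arrays alone; the variants' median of 0.13 was 0.053 without Rptor-/- array 1 and 0.048 without WT array 4.

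**Figure D4:**
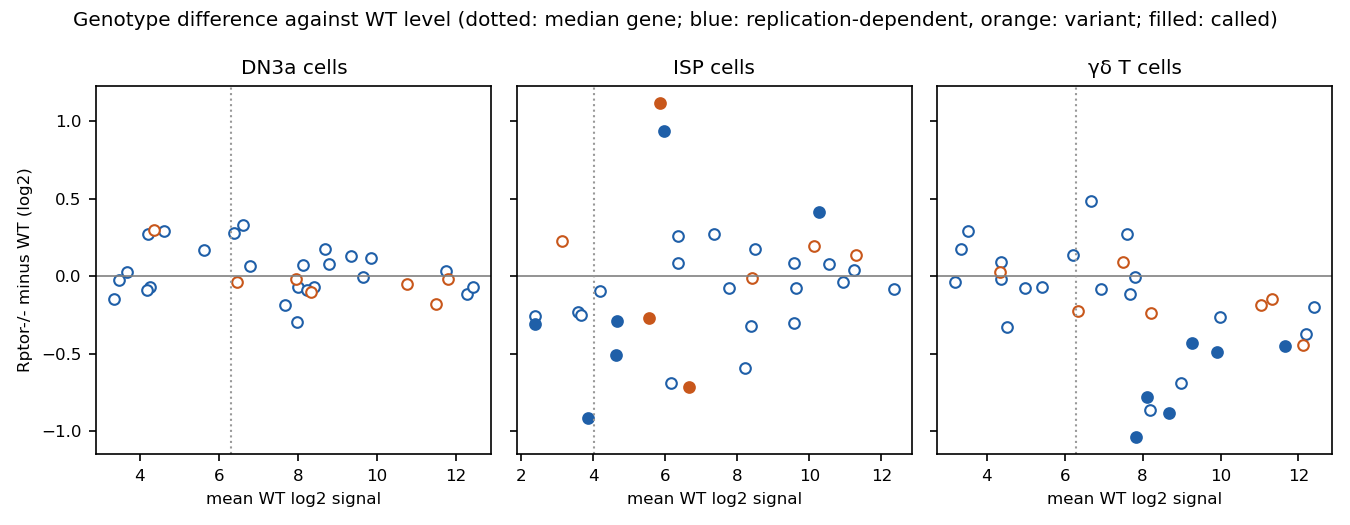
Difference between genotypes (Rptor-/- minus WT, log2) against the mean WT signal (log2) for the 25 replication-dependent (blue) and 7 variant (orange) histone genes in each population; filled points passed limma at an adjusted p under 0.05, and the dotted line marks the median gene. In γδ T cells the called genes are among the brighter ones, in ISP cells 2 of the 4 replication-dependent genes called lower are at or below the dotted line, and in DN3a cells no point is filled.

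In DN3a cells no histone gene passed the test in either direction. By limma 0 of 44 members passed, where 0.983% of all genes did (0.712% higher and 0.271% lower), and 2 were higher and 1 lower at an unadjusted p under 0.05. The 25 replication-dependent genes had a median of 0.03, from −0.29 to 0.33, with 12 below and 13 above 0. The 7 variants had a median of −0.04. The median of all genes was 0.011. The largest values among replication-dependent genes were H4c14 at 0.33 (SE 0.16), H1f1 at −0.29 (SE 0.27) and H2bc9 at 0.29 (SE 0.28), with limma adjusted p of 0.49, 0.80 and 0.81. Among variants they were Macroh2a2 at 0.30 (SE 0.16), Macroh2a1 at −0.18 (SE 0.09) and H2az1 at −0.10 (SE 0.08), with limma adjusted p of 0.55, 0.53 and 0.77.

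H1f5 in DN3a cells read 7.89, 8.24 and 8.52 in Rptor-/- and 7.85, 8.21 and 8.37 in WT, nearly the same spread in both groups. H2ac10 read 11.75, 11.70 and 11.90 against 11.55, 11.89 and 11.82, also overlapping. H1f10 read 6.29, 6.43 and 6.54 against 6.37, 6.54 and 6.47, with a difference of −0.04 (SE 0.17). H2aj was at −0.02 (SE 0.12) and H2ax at −0.02 (SE 0.12). The 17 brighter replication-dependent genes averaged −0.23, 0.10 and 0.19 relative to the WT mean on the 3 Rptor-/- arrays and −0.12, 0.13 and −0.0043 on the WT arrays. Rptor-/- array 1 was the lowest of the 6, also for S phase genes, which averaged −0.47 there against −0.22 and −0.03 on the other 2. None of the message processing genes or of either chaperone list passed in DN3a cells, and in S phase 1 of 27 fell, Tyms by 0.43 (limma adjusted p = 0.035), with a median of −0.20 and every one of the 27 below 0. The 19 mitosis genes had a median of −0.21. Nasp was at −0.44 (SE 0.11; limma adjusted p = 0.055). Each of the 13 alternatives also gave 0 called members, but the replication-dependent median ranged from −0.06 to 0.12 over them and the variant median from −0.10 to 0.03, and both took either sign.

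**Figure D5:**
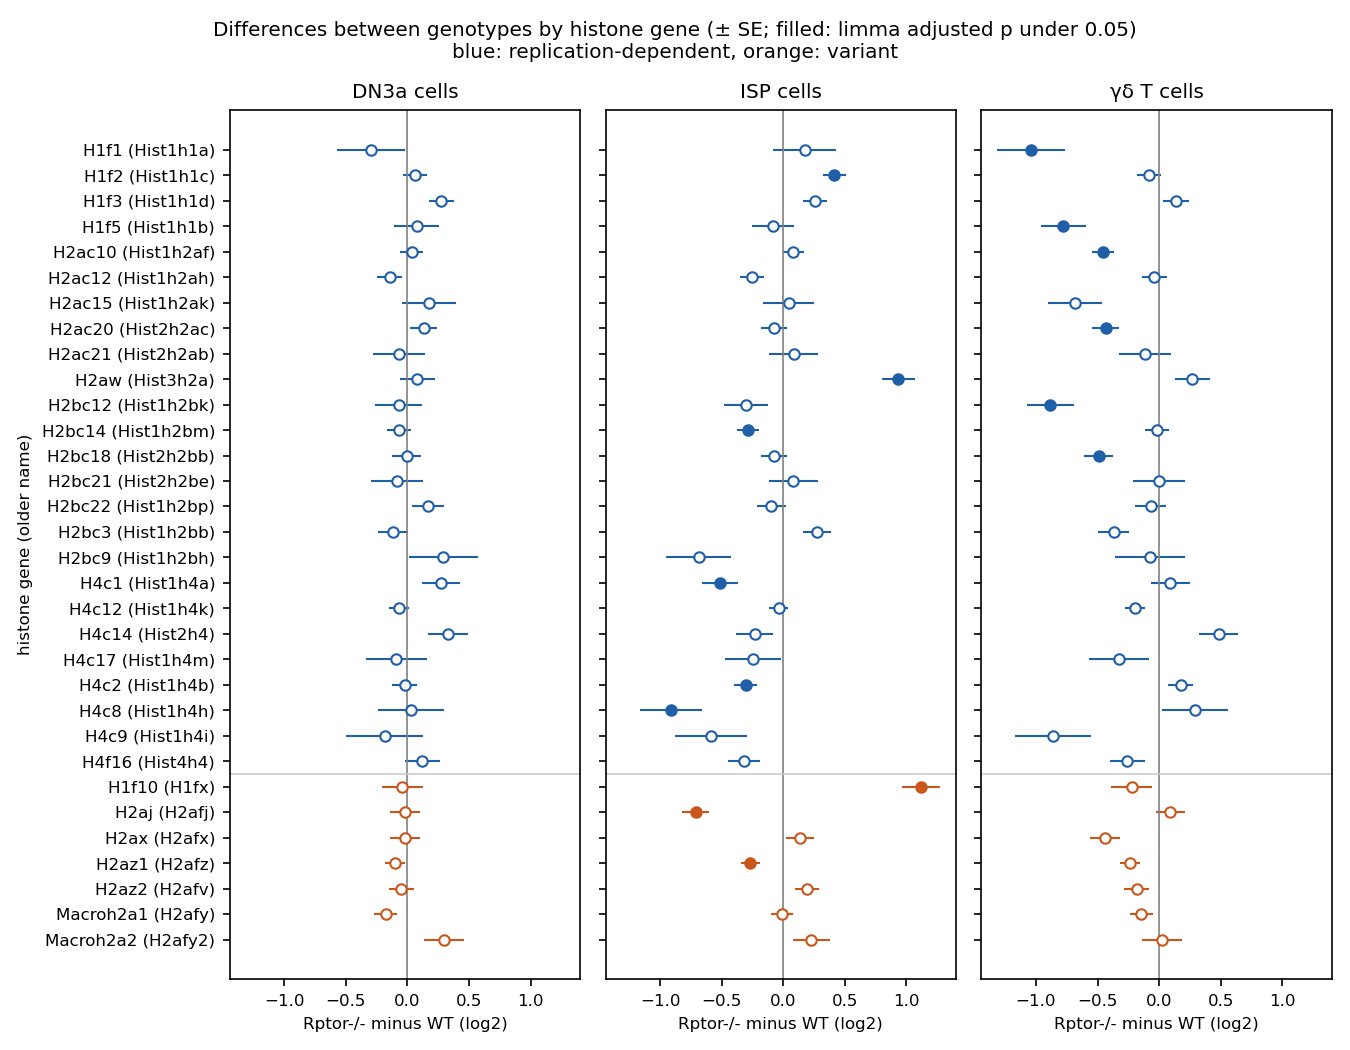
Difference between genotypes (Rptor-/- minus WT, log2, ± SE) for each replication-dependent (blue) and variant (orange) histone gene in DN3a, ISP and γδ T cells; filled points passed limma at an adjusted p under 0.05. DN3a cells have no filled point, ISP cells have 9 in both directions, and γδ T cells have 6, all below 0 and replication-dependent.

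Whether a genotype difference itself differed between populations was tested by interaction terms. Because ISP arrays lie on a lower scale than the others, terms with ISP cells cannot separate a population difference from one between array sets. Between ISP and DN3a cells 4 of the 44 members passed by limma, where 7.01% of all genes did (2.89% more positive in ISP cells and 4.12% more negative). H1f10 differed by 1.16 (SE 0.23; limma adjusted p = 0.0037) and H2aw by 0.85 (SE 0.20; limma adjusted p = 0.012), both more positive in ISP cells. H2aj differed by −0.69 (SE 0.16; limma adjusted p = 0.014) and H4c1 by −0.79 (SE 0.21; limma adjusted p = 0.031). The first 3 held under all 20 alternatives, and H4c1 had a highest adjusted p of 0.088.

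Between ISP and γδ T cells 7 members passed, where 5.78% of all genes did (2.16% more positive in ISP cells and 3.63% more negative). H1f10 differed by 1.34 (SE 0.23; limma adjusted p = 0.0013), H2aj by −0.80 (SE 0.16; limma adjusted p = 0.0061) and H2ac10 by 0.53 (SE 0.12; limma adjusted p = 0.013), and these held under all 20 alternatives. The others were H1f2 at 0.50, H2bc3 at 0.64, H2ax at 0.58 and H4c2 at −0.48, with limma adjusted p of 0.031, 0.029, 0.046 and 0.048 and highest values over the alternatives of 0.081, 0.089, 0.12 and 0.13. H2ax was at 0.13 in ISP and −0.44 in γδ T cells, neither called alone. The number of members called was 3 without ISP Rptor-/- array 1 or without γδ WT array 2, and 4 without ISP WT array 2 or without γδ Rptor-/- array 1.

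Between γδ T and DN3a cells 0 of 44 passed by limma, where 0.6% of all genes did (0.392% more positive in γδ T cells and 0.207% more negative), with 8 lower and 0 higher at an unadjusted p under 0.05. The smallest p belonged to H2ac10, at −0.49 (SE 0.13; limma adjusted p = 0.11). It passed with an intensity trend in the prior (limma adjusted p = 0.034). Without γδ Rptor-/- array 3, H1f5 passed, at −1.09 (SE 0.22; limma adjusted p = 0.030). The fall of the 6 genes in γδ T cells was not shown to differ from DN3a cells.

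WT γδ T and WT DN3a cells, whose arrays have like medians, differed in 6 of the 44 members by limma, where 25.1% of all genes differed (12.7% higher in γδ T cells and 12.3% lower). These WT arrays also enter the genotype comparisons above. H2aw was lower in γδ T cells, with 7.73, 7.47 and 7.56 against 8.83, 9.03 and 8.48 in DN3a cells. The groups were far apart, and the difference was −1.19 (SE 0.14; limma adjusted p = 2.2e-06). H2ac21 (Hist2h2ab) and H2aj were also lower, by −0.73 (SE 0.21; limma adjusted p = 0.014) and −0.45 (SE 0.12; limma adjusted p = 0.0080). H2ac21 has 2 probe sets, and with their mean its difference was −0.32 and did not pass (limma adjusted p = 0.063). H2bc12, H2ax and H2az2 were higher, by 0.66 (SE 0.19), 0.34 (SE 0.12) and 0.29 (SE 0.10), with limma adjusted p of 0.015, 0.048 and 0.046. The 25 replication-dependent genes had a median of −0.04 and the 7 variants of −0.11. The H2aw call held under all 13 alternatives. The highest adjusted p was 0.078 for H2ac21, 0.053 for H2aj, 0.081 for H2bc12, 0.22 for H2ax and 0.20 for H2az2, and 3 members passed without DN3a WT array 1, without DN3a WT array 3 or without γδ WT array 2.

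Most germline genes and pseudogenes were dim. Of the 9 germline members 3 were above the median gene in DN3a and γδ T cells and 2 in ISP cells. H2bc1 (Hist1h2ba), the testis H2B, was the dimmest member of DN3a cells, at 2.97 to 3.24 on all 6 arrays. The 3 pseudogenes H2af-ps2, Macroh2a3 and H2bu1-ps had no call in any genotype comparison. The smallest limma adjusted p was that of H2bu1-ps in ISP cells, 0.12. It passed without WT array 2, at −0.55 (limma adjusted p = 0.049).

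Genes that define the sorted populations moved beside the histones. In γδ T cells 3 of the 6 ISP markers were lower in Rptor-/- and 0 higher. Cd8b1, a chain of CD8, fell by 1.72, Cd8a, the other chain, fell by 0.53 and Cd24a fell by 0.33 (limma adjusted p = 1.0e-04, 0.037 and 0.043). Of the 4 γδ markers Il2rb, an interleukin receptor chain, rose by 0.52 there and the other 3 did not pass. In ISP cells 5 of the 7 DN3a markers rose, among them Notch3 by 1.36 and Ptcra, the pre-TCR alpha chain, by 0.63, whereas the Notch target Hes1 fell by 0.98. Of the ISP markers 3 rose, among them Ptcra and Cd3e, which are also DN3a markers, and Cd24a fell by 0.51. Of the γδ markers Cd3e rose by 0.22 and Id3, an inhibitor of E proteins, fell by 2.29 (limma adjusted p = 1.1e-09). In DN3a cells 1 DN3a, 2 ISP and 1 γδ marker rose and 0 fell, with Ptcra counted under both DN3a and ISP. The part of these markers in the histone results was not tested.

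Of 7 B cell, 7 dendritic cell, 8 myeloid, 3 erythroid and 7 thymic stroma genes, limma called 0 or 1 per list in each population, and the median differences of these lists lay between −0.20 and 0.11. Single genes differed by more: the myeloid genes Fcer1g by 1.65 in γδ T and Lyz2 by 1.04 in DN3a cells. The medians of the myeloid list there were 0.05 and −0.05. In DN3a cells Epcam of the stroma list was at 0.67 and Ighm of the B cell list at −0.86. On WT DN3a arrays these lay at the 81.2 and 99.4 percentile of genes. Of 7 genes of mature αβ T cells 1 rose and 1 fell in ISP cells and 0 passed in DN3a and γδ T cells, with medians between −0.08 and 0.12.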

How the data were processed

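Per the labels, RNA of sorted cells (12 ng) was amplified, biotinylated and hybridized. The deposited values are log2 signals per probe set, made with RMA in Partek 6.6 per the submitters' processing notes. The sources used here do not say which arrays shared a normalization. RMA compresses differences at dim probe sets, and probes that match several histone genes mix their signals.

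Of 41345 probe sets, 23521 have 1 gene symbol, 1814 several, and 16010 are not named in the annotation used. Current symbols came from RefSeq through Entrez IDs, which matched for 23328 probe sets. For each of 22180 genes the probe set with the highest mean over the 19 arrays was taken (3 of the 44 members had more than 1). The name rule was applied to current symbols and older RefSeq names, since 17 members match by the current symbol alone. The members and gene lists were chosen with earlier results of these data known. Titles gave each array's group and replicate number.

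The test was limma 3.58.1 (R 4.3.3; functions lmFit and eBayes; 1 model of 6 group means over 19 arrays; Benjamini-Hochberg over 22180 genes; threshold 0.05), first tested on simulated data. Rptor was also tested by an exact permutation test. "Brighter" means a mean over the population's arrays above that of the median gene (6.31 in DN3a, 4.02 in ISP and 6.30 in γδ T cells). The number of arrays limits the precision. Genes named are members past the threshold in any comparison, the 3 replication-dependent and 3 variant members with the largest difference per population, the variant genes H2az1, H2az2, H2ax, Macroh2a1, H2aj and H1f10, in each pathway list at most 4 genes, by smallest p, and Rptor. Other members were named after their values were seen. Lists are described by counts and medians. Alternatives were a fit of the compared populations alone, median centring, quantile normalization, no dim genes, the mean of all probe sets, an intensity trend, a replicate block and leaving out each array. Tables were made with Python 3.11.15 and figures with matplotlib 3.10.9.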

Additional observations from a re-analysis of the deposited data

Results flagged for a closer look

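On the 4 WT ISP arrays, 5 of the 44 members had 1 array far from the other 3, judged by its gap to the nearest array over the whole range. Chance flags about 1 in 20 groups. Array 2 was lowest for H1f1 (0.875 of the range) and H1f10 (0.951), array 3 was lowest for H1f8 (1.00) and highest for H2bc18 (0.932), and array 1 was highest for H2ab2 (1.00). For H1f8 and H2ab2 the other 3 arrays held the same value to 2 decimals.

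Genotype differences that differed between populations by limma's interaction terms were those of H1f10 (1.16), H2aw (0.85), H2aj (−0.69) and H4c1 (−0.79) for ISP minus DN3a cells. For ISP minus γδ T cells they were those of H1f10 (1.34), H2bc3 (0.64), H2ax (0.58), H2ac10 (0.53), H1f2 (0.50), H4c2 (−0.48) and H2aj (−0.80). Both comparisons set ISP arrays against arrays on a higher scale, and the effect of that scale cannot be told apart from that of the population.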

How the results depend on the processing

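No member's call changed sign under the alternatives, but the counts of calls moved. When only the arrays of the populations compared were fitted, 5 members passed in ISP cells in place of 10 (5 of them shared), 2 in γδ T cells in place of 6, and 4 in the ISP against γδ interaction in place of 7. With arrays centred on their medians 3 passed in γδ T cells. In the γδ against DN3a interaction, where 0 passed, 1 passed with an intensity trend (H2ac10). With 1 array left out in turn, the number called ranged from 5 to 10 in ISP cells, 1 to 6 in γδ T cells, 0 to 0 in DN3a cells, 3 to 5 for ISP against DN3a, 3 to 7 for ISP against γδ, 0 to 1 for γδ against DN3a and 3 to 5 between WT γδ T and DN3a cells.

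Replicate numbers were not taken as pairs in the main fit. Same-numbered arrays correlated in their deviations from group means at 0.099, 0.025 and −0.013 in ISP, 0.24, 0.013 and 0.17 in DN3a and −0.10, −0.0030 and −0.017 in γδ T cells. Differently numbered arrays of the 2 genotypes correlated at −0.13 to 0.081 in ISP, −0.25 to 0.11 in DN3a and −0.10 to 0.12 in γδ T cells. In DN3a cells the values 0.24 and 0.17 lay above that range, so a pairing there was not excluded. With the replicate number as a block (WT ISP array 4 has no partner) 8 members passed in ISP cells, 6 in γδ T cells (4 of the same genes, H2ax, and H2ac15 at a limma adjusted p of 0.0023) and 0 in DN3a cells, 4 and 7 in the interactions of ISP with DN3a and γδ T cells, and 1 (H2ac15) in that of γδ T with DN3a cells. Between WT γδ T and DN3a cells a block within each population could not be fitted, and a block over both populations, chosen after seeing the data, gave 7. The variants' median of 0.13 in ISP cells was 0.048 with the block, and 0.063 without dim genes, which also took the replication-dependent median of γδ T cells from −0.11 to −0.40 over fewer genes.

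Over all genes, fitting 1 population alone called 144 genes in place of 218 in DN3a, 1313 in place of 2759 in ISP and 345 in place of 677 in γδ T cells. Leaving out 1 array moved the count by over 1.5 times in DN3a cells (124 to 144 without Rptor-/- 2 or any WT array), in γδ T cells (363 without Rptor-/- 2, 333 without WT 2 and 434 without WT 3), for ISP against DN3a (1013 in place of 1554 without DN3a WT 1), for ISP against γδ (853 in place of 1283 without γδ WT 3) and for γδ against DN3a (76 to 88 in place of 133 without 7 of the arrays in turn). Centring put 74.9% of γδ calls higher in place of 58.0% and 24.0% in place of 37.3% for ISP against γδ, where quantile normalization gave 48.6%. Quantile normalization gave 61.7% in place of 72.5% in DN3a cells and 52.2% in place of 41.2% for ISP against DN3a.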
